A study of Mus musculus with 3 samples.

Results

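Integrin genes and integrin antibodies were followed through the leukocytes of naive and transplanted mouse lung. A gene was taken where its symbol begins with Itga or Itgb, which gave 31 of 32285 genes. An antibody was taken where its name begins with ITG, which gave 13 of 277 antibodies. Of the 31 genes, 27 encode subunits, with 18 alpha chains and 9 beta chains, Itgb2l included. The other 4 carry the prefix without being subunits, and these are Itgb1bp1, Itgb1bp2, Itgb3bp and Itgbl1.

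Integrins are surface receptors made of 1 alpha and 1 beta chain, and the pair decides which ligand is bound. Leukocytes use the Itgb2 family to arrest on endothelium that displays ICAM molecules, and they use Itga4, paired with Itgb1 or Itgb7, to bind VCAM-1, fibronectin and MAdCAM-1. Integrins wait in a bent, low-affinity form until talin and kindlin bind the beta tail, so that the amount of a chain and its activity are separate quantities, of which only the amount is measured here.

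The series holds 3 single-cell libraries of mouse left lung, all labelled C57BL/6J. In 2 of them a CD45.2 donor lung was kept for 60 min at 4 °C and a further 45 min at 28 °C, placed in a congenic B6 CD45.1 recipient (in the study's mouse list B6 CD45.1 stands for B6.SJL-Ptprca Pepcb/BoyJ), and reperfused for 2 h or for 3 d. The third library came from untouched, naive lung. Cells of 2 mice were pooled for each library, and recipient cells were sorted by CD45.1 (the sources do not say which CD45 allele the naive mice carried). There is 1 library per group, so no difference below has a replicate check, and none was tested across mice.

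After the quality filter 2422 naive, 10283 2 h and 8324 3 d cells remained, with median counts of 7298.5, 878 and 5716.5 unique molecular identifiers (UMIs) per cell. The naive library holds no antibody counts, and the 2 h and 3 d libraries hold 879206 and 1248913 antibody UMIs. Between 1 and 23 cell barcodes were shared by any pair of libraries. Cells were clustered without the integrin genes and named from marker genes, which left 8 lineages with at least 50 cells at both 2 h and 3 d and 5 that could also be set beside naive lung. Cells of a lineage fell into different clusters in different libraries: T cells lay in cluster 11 in naive lung, mostly in cluster 3 at 2 h (60.5%) and in cluster 8 at 3 d. The cluster that the naming rule called plasmacytoid dendritic cells had 4 markers of that type and 3 of conventional dendritic cells among its 10 leading genes, and is called the dendritic cell cluster here. The endothelial cluster held UMIs of all 9 endothelial markers in each library, although cells were sorted by a leukocyte antigen. These summed to 6896, 5184 and 4897 UMIs per 1000000 UMIs (CPM) in naive lung, at 2 h and at 3 d, below the 8045, 23465 and 5307 CPM of 7 epithelial markers. In the same order 6 fibroblast markers summed to 526, 1828 and 162 CPM there, 5 erythroid markers to 3603, 0 and 17.3 CPM, and 10 neutrophil markers to 245, 1154 and 13806 CPM. Integrin values of this cluster are thus those of a mixture, and the part of each cell type in them was not tested.

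RNA levels are UMIs of a gene per 1000000 UMIs of the lineage in that library (CPM). Their intervals are exact 95% Poisson intervals, and those of ratios are exact conditional intervals, which cover counting error only. A gene was called higher or lower where its CPM differed at least 2-fold and the interval of the ratio excluded 1, among genes with at least 50 UMIs in the 2 libraries together.

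Of the 31 genes, 15 reached 100 CPM in at least 1 lineage: Itga1, Itga2, Itga2b, Itga4, Itga5, Itga6, Itga9, Itgal, Itgam, Itgav, Itgax, Itgb1, Itgb2, Itgb5 and Itgb7. The highest level of the other 16 ranged from 2.00 to 82.7 CPM, and 5 of them stayed below 10 CPM in every lineage. A RefSeq promoter of GRCm38.p6 was at hand for 22 of the 31 genes. The promoters of 3 are printed, since Itgam and Itgax lie close together on chromosome 7 and had their highest RNA in different myeloid cells, and Itgb7 was measured both as RNA and as protein. Each run covers 250 bases before and 50 bases after the transcription start, 5′ to 3′ on the gene's own strand, at chr7:128062390-128062689 (plus strand), chr7:128129300-128129599 (plus strand) and chr15:102231886-102232185 (minus strand).
Itgam: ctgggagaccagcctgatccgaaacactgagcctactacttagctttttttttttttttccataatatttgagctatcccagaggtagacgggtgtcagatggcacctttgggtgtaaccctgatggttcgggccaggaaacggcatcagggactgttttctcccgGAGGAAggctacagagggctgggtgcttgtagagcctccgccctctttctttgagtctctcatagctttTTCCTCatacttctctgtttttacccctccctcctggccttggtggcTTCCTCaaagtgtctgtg
Itgax: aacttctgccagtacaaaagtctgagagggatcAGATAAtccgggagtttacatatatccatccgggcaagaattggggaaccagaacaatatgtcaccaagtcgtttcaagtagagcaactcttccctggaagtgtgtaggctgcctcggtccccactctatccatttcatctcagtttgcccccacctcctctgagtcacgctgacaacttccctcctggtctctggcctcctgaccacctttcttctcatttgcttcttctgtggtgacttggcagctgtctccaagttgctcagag
Itgb7: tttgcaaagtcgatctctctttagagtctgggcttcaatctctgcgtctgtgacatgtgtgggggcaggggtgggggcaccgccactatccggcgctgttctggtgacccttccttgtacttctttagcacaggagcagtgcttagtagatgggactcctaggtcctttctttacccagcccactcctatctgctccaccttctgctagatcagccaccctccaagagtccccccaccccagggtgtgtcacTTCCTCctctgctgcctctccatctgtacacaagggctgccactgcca
The capitals mark 2 short motifs that were searched on both strands, GAGGAA and AGATAA. The first, which reads TTCCTC on the other strand, is a core that Ets-family factors such as PU.1 can bind. The second, which reads TTATCT there, is a core of GATA factors. Itgam holds GAGGAA 3 times, Itgb7 once and Itgax not at all, and Itgax holds AGATAA once. For scale, 28.3% of all 32851 promoters in the table hold GAGGAA and 11.2% hold AGATAA, and a match is only a stretch of letters.

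**Figure D1:**
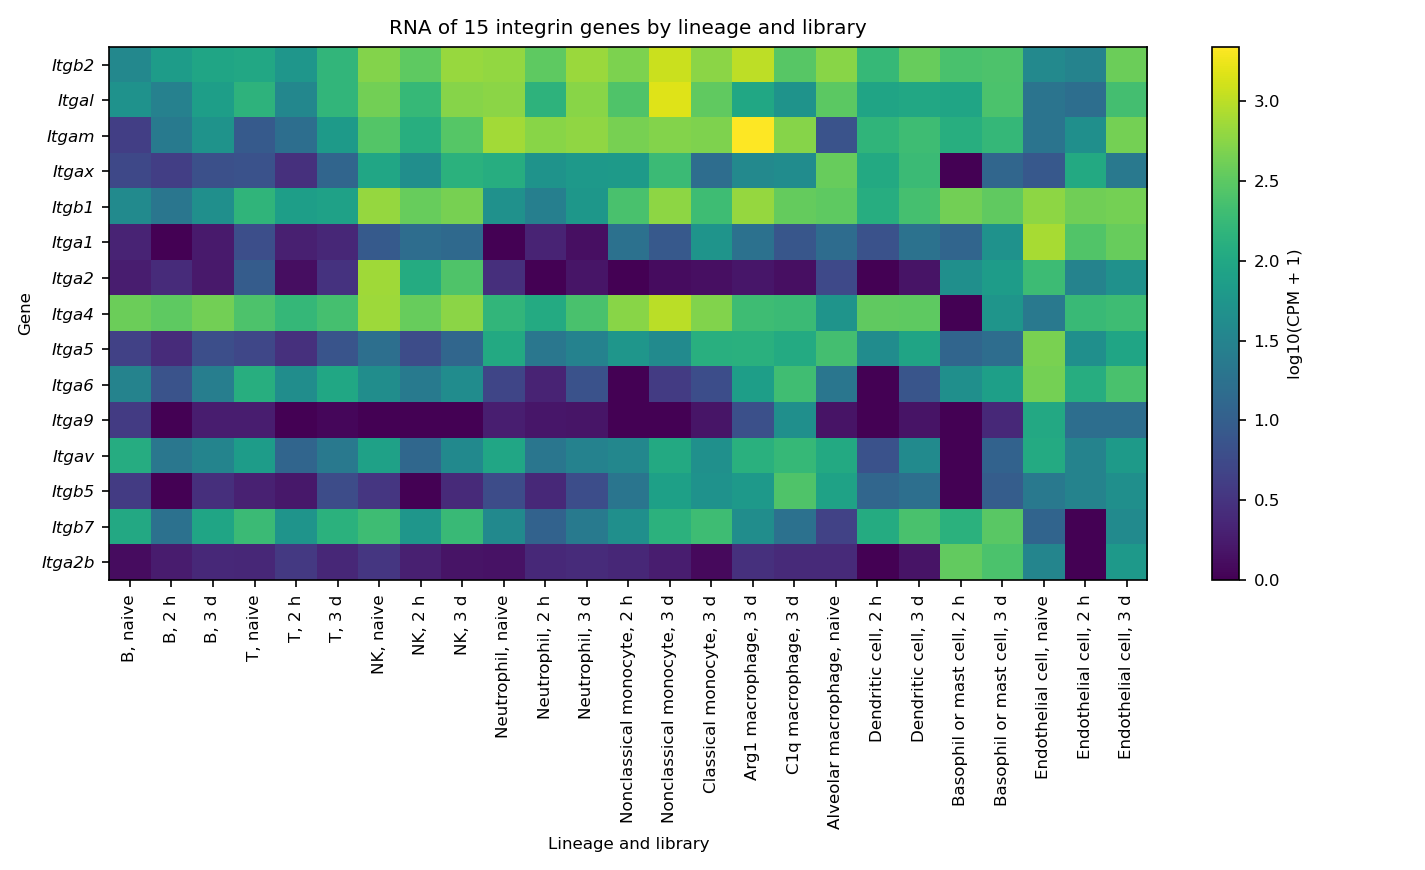
RNA of the 15 integrin genes that reached 100 CPM, as log10(CPM + 1), with 1 column for each lineage and library that had at least 50 cells. Itgam is brightest in Arg1 macrophages at 3 d (2176 CPM), Itga2 in NK cells, and Itga2b in basophils or mast cells.

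Each lineage carried its own set of chains. Itgam, the alpha chain of the complement receptor Mac-1, was highest in Arg1 macrophages, which were found only at 3 d, at 2176 CPM (interval 2141 to 2211). In neutrophils Itgam was 747, 560.5 and 598 CPM in naive lung, at 2 h and at 3 d. Itgax, the alpha chain that pairs with Itgb2 on dendritic cells and lung macrophages, was 361 CPM in alveolar macrophages of naive lung. In the dendritic cell cluster Itgax was 106 CPM at 2 h and 190.1 CPM at 3 d, and in nonclassical monocytes it was 64.0 and 190.0 CPM. At 3 d the intervals of these 2 lineages overlapped (171 to 210.2 CPM and 176 to 205 CPM). Classical monocytes, seen at 3 d, had 497 CPM of Itgam and 14.7 CPM of Itgax.

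The lineage named nonclassical monocytes, cells that patrol the vessel wall, had the highest Itgal, Itgb2 and Itga4 in both transplant libraries. This ranking covers the lineages that were compared between 2 h and 3 d. At 3 d the levels were 1487 CPM for Itgal, 1177 CPM for Itgb2 and 970.5 CPM for Itga4. At 2 h the lineage had 2366 CPM of nonclassical and 2355 CPM of classical monocyte markers. The part of classical monocytes in its 2 h values was not tested. The runner-up at 3 d was the neutrophil for Itgal (556 CPM) and the NK cell for Itga4 (574 CPM), and the intervals did not overlap. All lymphoid lineages carried Itga4, at 417 CPM in B cells, 223 CPM in T cells and 574 CPM in NK cells at 3 d.

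Itga2, the alpha chain of the collagen receptor that is used to mark mouse NK cells, was 729, 111 and 264 CPM in NK cells of naive lung, at 2 h and at 3 d. In T cells it was 8.43, 0.318 and 2.09 CPM, and in neutrophils it never passed 1.78 CPM. Basophils or mast cells were next after NK cells in the transplants, at 45.3 and 69.3 CPM, and at 2 h the intervals of the 2 lineages overlapped. Itga2b, the platelet alpha chain, was 339.5 CPM at 2 h and 244 CPM at 3 d in basophils or mast cells. Of 8 platelet markers these cells held no UMI at 2 h and 7.22 CPM of 1 marker at 3 d. In the endothelial cluster Itga2b was 32.4, 0 and 63.1 CPM in naive lung, at 2 h and at 3 d, beside platelet marker sums of 353, 74.9 and 654 CPM, whose part in that level was not tested.

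Chains that bind matrix were spread over the endothelial cluster and macrophages. Itga1, an alpha chain for collagens, was 793, 270 and 363 CPM in the endothelial cluster, and no other lineage passed 51.7 CPM. Itga6, an alpha chain for laminins, was 432, 120 and 239 CPM there, and C1q macrophages at 3 d had 203 CPM, a level whose interval (187 to 221 CPM) overlaps that of the endothelial cluster at 3 d (206 to 275 CPM). Itgb5, which pairs with Itgav to bind vitronectin, was highest in C1q macrophages (259 CPM), as was Itgav at 3 d (174 CPM), while Arg1 macrophages had 62.9 CPM of Itgb5 and 130 CPM of Itgav. Itga5, the fibronectin receptor alpha chain, was 129 CPM in Arg1 macrophages, 128 CPM in classical monocytes and 110 CPM in C1q macrophages at 3 d, against 5.43 CPM in B cells. In naive lung it was 458 CPM in the endothelial cluster and 215 CPM in alveolar macrophages. Itga9 passed 100 CPM only in the naive endothelial cluster (101 CPM, from 28 UMIs) and was 44.3 CPM in C1q macrophages. Itgb1, the common partner of these alpha chains, was 641 CPM in Arg1 macrophages and 591 CPM in nonclassical monocytes at 3 d, and lowest in B cells at 44.5 CPM.

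The leading lineage was mostly shared between the transplant libraries: of the 11 genes that reached 100 CPM in a shared lineage at both times, 10 had the same leading lineage at 2 h and 3 d. The exception was Itgb1, led by basophils or mast cells at 2 h (419 CPM, interval 295 to 577) and by nonclassical monocytes at 3 d (591 CPM). Not every leader was clear of counting error. Intervals of the first and second lineages overlapped at 2 h for Itga2, Itga6, Itgax, Itgb1 and Itgb7, and at 3 d for Itgax. At 2 h Itgax was 106 CPM in the dendritic cell cluster and 104.9 CPM, from 7 UMIs, in the endothelial cluster. Ranks below the first could differ, as for Itgal, where NK cells were second at 2 h (169 CPM) and neutrophils at 3 d (556 CPM). The intervals of these 2 lineages overlapped at both times, so that counting error alone could reorder them.

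Among the 16 genes below 100 CPM, Itgb3, the beta chain of the vitronectin and fibrinogen receptors, was 82.7, 49.0 and 44.2 CPM in B cells of naive lung, at 2 h and at 3 d. Those cells had the highest Itgb3 in naive lung and at 2 h, and basophils or mast cells did at 3 d (63.5 CPM). The intervals of these 2 lineages overlapped at 2 h, where basophils or mast cells had 4 UMIs, and at 3 d. Itgae, the alpha chain that binds E-cadherin on epithelium, was 15.6, 15.6 and 13.3 CPM in T cells, and at 3 d the dendritic cell cluster had 23.5 CPM. Itgb2l, a relative of Itgb2, was 17.8, 7.14 and 3.98 CPM in neutrophils, and no other lineage passed 0.997 CPM. The 4 genes that are not subunits stayed at or below 64.8 CPM, and Itgbl1 was seen above 1 CPM only in the endothelial cluster (64.8 CPM in naive lung and 29.97 CPM, from 2 UMIs, at 2 h).

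The comparison of 3 d with 2 h asked how these chains changed between the early injury and the later graft, and both libraries were counted by the same software version. Of 93 pairs of an integrin gene and a lineage that could be compared, 42 were called higher at 3 d and 2 were called lower, where 13.9% and 6.41% of all 49886 gene and lineage pairs were. The median log2 ratio was 0.995 for the integrin genes and 0.27 for all genes compared. The UMI limit was set on both libraries together, and each lineage had more UMIs at 3 d. Pairs higher at 3 d thus entered more easily. The 5 genes called higher in B cells had 8 to 36 UMIs at 2 h, and the 4 in the dendritic cell cluster had 1 to 29. The 2 pairs called lower had 91 and 43. All genes were held to the same limit, and its part in the excess of higher calls was not tested. Without the endothelial cluster, left out after its values were seen, 39 of 83 pairs were called higher and 2 lower. No joint share of all genes is given without that cluster, and the shares by lineage follow. Counting by lineage, nonclassical monocytes had 7 of 12 genes higher (20.2% of all genes), neutrophils 8 of 14 (15.5%), NK cells 7 of 12 (12.6%), T cells 6 of 13 (10.3%) and B cells 5 of 13 (14.1%). The dendritic cell cluster had 4 of 11 (13.7%), the endothelial cluster 3 of 10 (10.2%) and basophils or mast cells 2 of 8 (12.1%). With both chosen by name, these shares describe the integrin genes and were not tested against other lists.

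**Figure D2:**
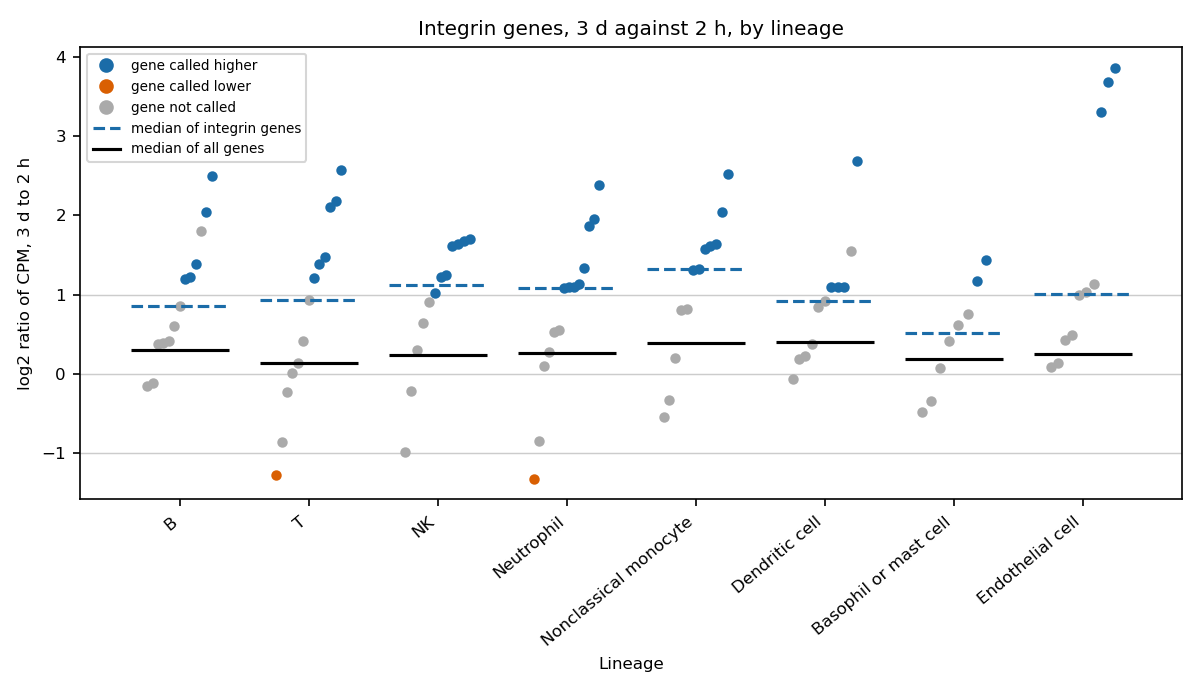
Log2 ratio of CPM at 3 d to 2 h for each integrin gene with at least 50 UMIs (points) in 8 lineages. Blue points were called higher and orange points lower, the dashed line is the median of the integrin genes and the black line that of all genes: the dashed line lies above the black one in each lineage.

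Itgal and Itgb7 were called higher at 3 d in 7 lineages each, and Itgb2 in 6. Itgal and Itgb2 are the chains of LFA-1, through which leukocytes hold on to ICAM-1. Itgal in T cells was 142 CPM in naive lung, 34.0 CPM (interval 27.9 to 41.1) at 2 h and 155 CPM (146 to 165) at 3 d. In NK cells the 3 values were 421, 169 and 538 CPM, and in neutrophils they were 575, 143 and 556 CPM. In B cells they were 49.8, 28.0 and 73.2 CPM. The 2 h library was the lowest of the 3 in each of these lineages. Itgal in nonclassical monocytes was 260 CPM at 2 h and 1487 CPM at 3 d, a 5.71-fold ratio (log2 2.515, interval 2.31 to 2.73), the largest of this gene outside the endothelial cluster. In that lineage the 7 nonclassical monocyte markers summed to 2366 CPM at 2 h and 5901 CPM at 3 d, and the 7 classical monocyte markers to 2355 and 879 CPM. This shift stands beside every change given for nonclassical monocytes, those of Itgb2, Itgax, Itgb1, Itgav, Itgb5, Itgb7, Thbs1 and Fn1 included, and its part in them was not tested.

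Itgal was called higher at 3 d in 7 of 8 lineages. The dendritic cell cluster was the exception, with 88.4 CPM at 2 h and 100.5 CPM at 3 d. In the endothelial cluster it went from 14.98 CPM, a single UMI, to 218 CPM (log2 ratio 3.86, interval 1.36 to 9.17), together with Itgb2 (29.97 and 382.5 CPM) and Itgam (45.0 and 442 CPM). The neutrophil markers were higher at 3 d in that cluster, as given above, and their part in these 3 ratios was not tested.

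Itgb2 in T cells was 98.5 CPM in naive lung, 55.7 CPM at 2 h and 155 CPM at 3 d. In NK cells it was 528, 327 and 666 CPM, and in neutrophils it was 628, 326 and 689 CPM. Nonclassical monocytes had 474 CPM at 2 h and 1177 CPM at 3 d. Itgb2 was called higher in 6 of 8 lineages, although the ratio was only 2.04-fold in NK cells and 2.11-fold in neutrophils. In B cells it was 35.5, 68.5 and 91.7 CPM in naive lung, at 2 h and at 3 d, so that the 2 h library was not the lowest. There 3 d over 2 h was not called and 3 d over naive was called higher (2.58-fold). In the same order B cells had 15.7, 32.7 and 158 CPM of Arg1 macrophage markers and 257, 2556 and 1242 CPM of neutrophil markers. The part of RNA from other cells in their Itgb2 was not tested. In basophils or mast cells (238 and 251 CPM) the intervals of Itgb2 overlapped. Where each cell was named from its own marker UMIs, the log2 ratio of Itgb2 was 0.77 in NK cells and 0.77 in nonclassical monocytes, below the 2-fold limit, while that of Itgal stayed at 1.66 and 1.63.

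Itgb7, the beta chain of the gut-homing and E-cadherin receptors, was called higher in all 7 lineages in which it could be compared. In B cells it was 103 CPM in naive lung, 16.4 CPM at 2 h and 91.9 CPM at 3 d, a 5.62-fold ratio of 3 d to 2 h. In T cells it was 185, 51.9 and 135 CPM, and in NK cells 199, 55.4 and 180.5 CPM. Basophils or mast cells had 136 CPM (interval 70.2 to 237) at 2 h and 306 CPM (266 to 350) at 3 d. In the lineages with naive cells Itgb7 was lowest at 2 h. By contrast Itga4, the alpha partner of Itgb7, was called in neutrophils alone, where it was 155, 109 and 240 CPM, and its median log2 ratio over 7 lineages was 0.415.

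Few genes were called in so many lineages. Of 2752 genes that could be compared in at least 7 of the 8 lineages, 2.62% were called higher in at least 6, and the integrin genes Itgal, Itgb2 and Itgb7 were 3 of the 7 compared so widely. Itgal and Itgb7 were called in at least 7 lineages, as 1.16% of those genes were. The limits of 6 and 7 lineages equal what these integrin genes reached, so the shares give scale and are no test. With the endothelial cluster set aside, Itgal was called in 6 lineages, Itgb2 in 5 and Itgb7 in 7. The lineages come from the same 2 libraries and do not count as replicates.

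**Figure D3:**
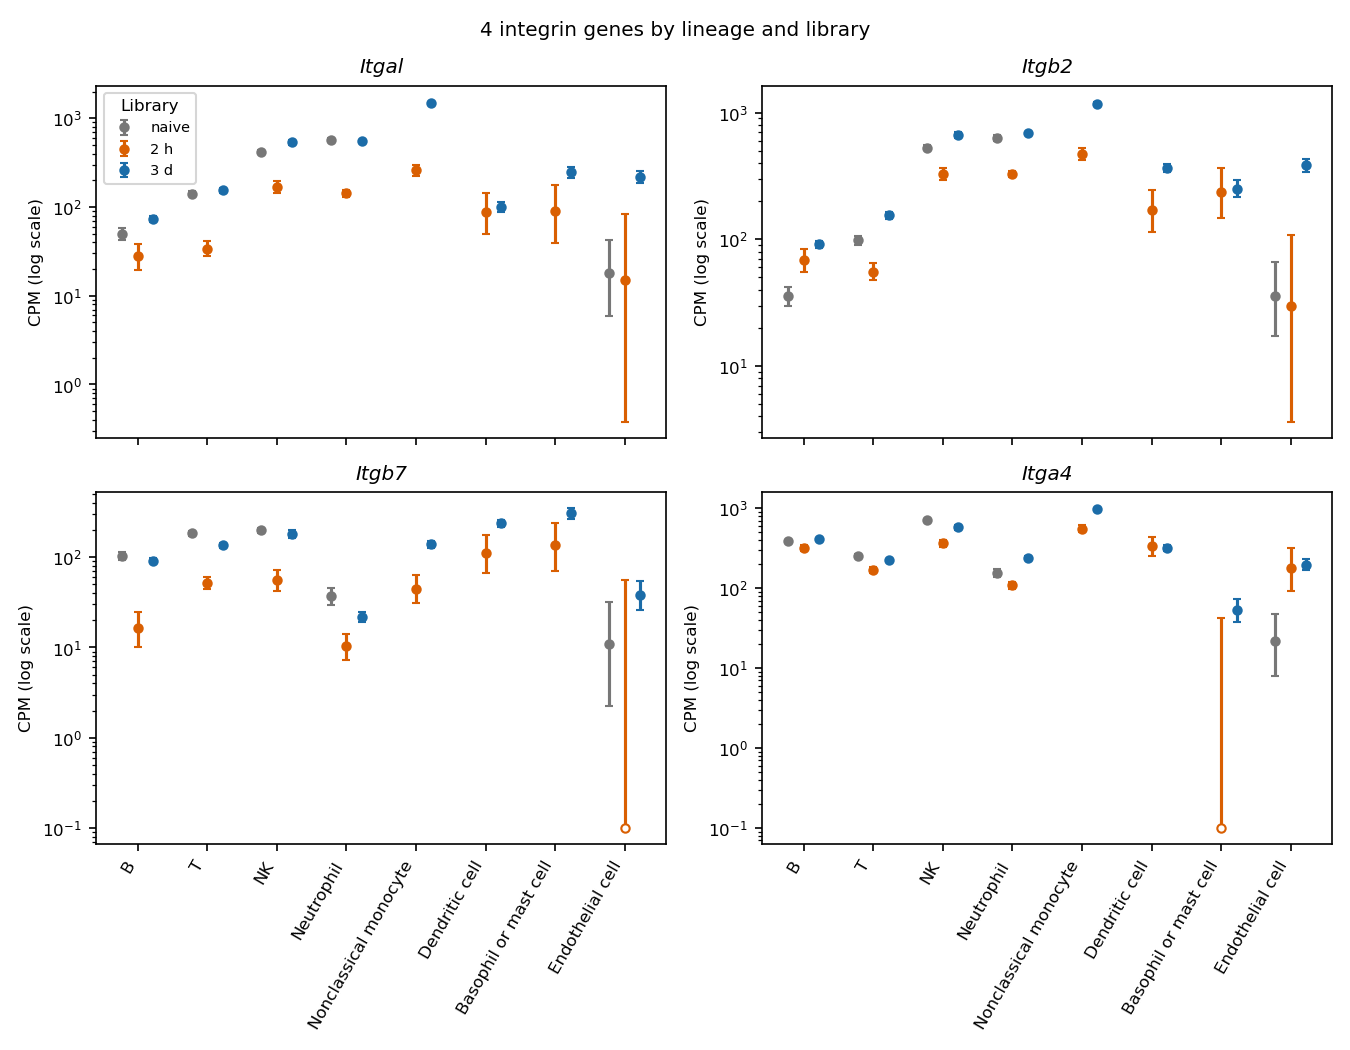
CPM of Itgal, Itgb2, Itgb7 and Itga4 in 8 lineages (log scale), with exact 95% Poisson intervals for counting error. Grey is naive lung, orange 2 h and blue 3 d, and an open symbol at 0.1 marks a level of 0. Itgal at 2 h sits at 34.0 CPM in T cells, below 142 CPM in naive lung and 155 CPM at 3 d. In the same cells Itga4 varies less, at 252.5 CPM in naive lung, 167 CPM at 2 h and 223 CPM at 3 d.

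Other genes moved in fewer lineages. Itga6 was called higher in B cells (30.3, 6.23 and 25.7 CPM in naive lung, at 2 h and at 3 d), in T cells (124, 41.7 and 96.0 CPM) and in neutrophils (4.01, 1.14 and 5.93 CPM). Itgax was called higher in NK cells (93.9, 43.5 and 133 CPM), in nonclassical monocytes (64.0 CPM at 2 h and 190 CPM at 3 d) and in T cells (6.02, 1.91 and 11.3 CPM). Itga2 was called higher in NK cells, with 111 CPM at 2 h and 264 CPM at 3 d. Itgb5 was called higher in nonclassical monocytes (19.1 and 78.8 CPM) and in neutrophils (1.43 and 5.19 CPM). C1q macrophage markers in neutrophils were 67.6 CPM at 2 h and 244 CPM at 3 d. Their part in the Itga6 and Itgb5 levels of neutrophils was not tested. Itgb1 was called higher in B cells (19.5 and 44.5 CPM), in neutrophils (26.8 and 57.3 CPM) and in nonclassical monocytes (236 and 591 CPM). Itgav was called higher in NK cells (11.9 and 36.9 CPM), in nonclassical monocytes (34.1 and 104 CPM) and in the dendritic cell cluster (5.89 CPM, from 1 UMI, and 38.02 CPM).

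Itgam was called higher in NK cells, at 282, 124 and 287 CPM in naive lung, at 2 h and at 3 d. The neutrophil markers in NK cells were 401, 2105 and 4364 CPM, and the Arg1 macrophage markers 34.4, 46.5 and 175.5 CPM. Itgam was also called higher in T cells, at 7.91, 14.95 and 64.1 CPM in naive lung, at 2 h and at 3 d, and in B cells, at 3.15, 21.8 and 50.7 CPM. Markers of Arg1 macrophages, the cells richest in Itgam, were 31.8, 34.4 and 133 CPM in T cells and 15.7, 32.7 and 158 CPM in B cells (8 of 8 markers seen at 3 d in both). Unlike in NK cells, the neutrophil markers were lower at 3 d than at 2 h, going from 1872.5 to 1568.5 CPM in T cells and from 2556 to 1242 CPM in B cells. The part of RNA from other cells in these Itgam levels was not tested.

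The 2 genes called lower at 3 d were Itgb3 in neutrophils (1 of 14, where 6.46% of all genes were) and Itgb3bp in T cells (1 of 13, 7.6%). Itgb3 in neutrophils was 12.5 CPM in naive lung, 26.0 CPM at 2 h and 10.4 CPM at 3 d, so that here the 2 h library was the highest. Itgb3bp, which encodes a nuclear and centromere protein and no integrin chain, was 25.6, 13.7 and 5.67 CPM.

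Against naive lung, the 2 h library was mostly lower. Of 55 pairs of an integrin gene and a lineage, 29 were called lower at 2 h, where 28.2% of all gene and lineage pairs were, and 2 were called higher (7.72%). The median log2 ratio was -1.11 for the integrin genes and -0.35 for all genes. Here too the UMI limit was set on both libraries together. Naive lung had more UMIs than 2 h in each of these lineages except neutrophils, so that pairs lower at 2 h entered more easily there. The part of this in the excess of lower calls was not tested. The pairs called higher were those of Itgb3 in neutrophils and in NK cells (14.5 CPM in naive lung and 29.7 CPM at 2 h). The 3 d library was nearer to naive lung, with 7 of 70 pairs called higher (7%) and 15 called lower (17.9%), and medians of -0.24 and -0.05.

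Genes lower at 2 h than in both other libraries were counted in each lineage with naive cells. These were Itga6 and Itgb7 in B cells (2 of 10 compared, where 9.2% of all genes were), Itga6, Itgal and Itgb7 in T cells (3 of 12, 5.66%), and Itgal and Itgb7 in neutrophils (2 of 12, 6.4%). NK cells had 6 of 12 (7.51%), which were Itga2, Itgal, Itgam, Itgav, Itgax and Itgb7, and the endothelial cluster had 0 of 4 (4.38%).

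Markers of the lineages themselves were also lowest at 2 h in B and NK cells and neutrophils. In naive lung, at 2 h and at 3 d, B cell markers were 13197, 4869 and 7874.5 CPM in B cells, NK markers 14857, 8323 and 13262 CPM in NK cells, and neutrophil markers 123373, 60653.5 and 157936 CPM in neutrophils. In T cells the T markers were 4940, 4129 and 3254 CPM, so that there 2 h was not the lowest. Markers of other cells moved too: T markers in NK cells were 604, 1478 and 481 CPM, and neutrophil markers in B cells were 257, 2556 and 1242 CPM. At 2 h T cells had 0.318 CPM of Itga2, 1.91 CPM of Itgax, 14.95 CPM of Itgam and 34.0 CPM of Itgal, each below the NK level. The part of such RNA or cells in the lower integrin levels at 2 h was not tested.

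Some genes, Itga2 in NK cells among them, were called lower than naive lung in both transplant libraries. Itgav in B cells was 117 CPM in naive lung, 20.2 CPM at 2 h and 30.8 CPM at 3 d, and in T cells it was 68.1, 11.1 and 21.2 CPM. Itga2 in NK cells, given above, was also lowest at 2 h, and Itgb3bp in B cells was 44.1, 12.5 and 11.5 CPM. In neutrophils Itga5 was 106, 20.3 and 29.3 CPM. The naive file was written by a later Cell Ranger version than the transplant files, the sources do not state if intronic reads were included, and the introns of these 4 genes span 71.8, 91.9, 160 and 17.5 kb. The software and the transplant cannot be told apart in any comparison with naive lung.

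Integrins act through adaptors and answer to ligands, so 64 genes of that machinery, listed with earlier results known, were set beside the chains. Between 2 h and 3 d, 323 gene and lineage pairs could be compared, 76 were called higher and 13 lower, where 13.9% and 6.41% of all gene and lineage pairs were. The median log2 ratio was 0.62, and 0.27 for all genes. The UMI limit on both libraries together applied to these pairs as well, and its part in the excess of higher calls was not tested. Genes for activation and linkage to actin had 31 of 94 pairs (33%) higher and 2 lower. Tln1, which encodes talin, was 179.9 and 497 CPM in NK cells and 129.6 and 422 CPM in the dendritic cell cluster at 2 h and 3 d. Flna, an actin cross-linker that binds beta tails, was 86.4 and 215 CPM in B cells, and T cells had 70.3 and 188.5 CPM. Vasp, an actin regulator at adhesion sites, was 284 and 701 CPM in neutrophils.

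Inside-out signalling genes had 16 of 104 pairs (15.4%) higher, near the share of all genes, and 0 lower. Rasgrp2, the exchange factor that switches on Rap1 ahead of integrin activation, was 50.2 and 171 CPM in neutrophils. Outside-in signalling genes had 14 of 75 pairs (18.7%) higher and 3 lower. Lyn, a Src-family kinase, was called lower at 3 d in neutrophils, with 1111 CPM at 2 h and 434 CPM at 3 d.

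Ligand genes had 15 of 50 pairs (30%) higher and 8 lower (16%). Thbs1, which encodes thrombospondin, was called lower in neutrophils (6831 and 1491 CPM) and in nonclassical monocytes (2674 and 368 CPM). Fn1, which encodes fibronectin, was 417 and 130 CPM in nonclassical monocytes, and it was 1.43 and 102 CPM in neutrophils and 1.27 and 74.6 CPM in T cells. Fn1 is among the 10 leading genes of the Arg1 macrophage cluster, whose cells came almost wholly from 3 d (636 cells, and 5 at 2 h), and the part of RNA from those cells in the neutrophil and T cell values was not tested.

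Of the 13 integrin antibodies only ITGA6 and ITGB7 gave counts. ITGA6 took 161403 UMIs at 2 h and 459490 at 3 d, which were 18.4% and 36.8% of all antibody UMIs. ITGB7 took 111132 and 219918 UMIs, or 12.6% and 17.6%. In the same order CD44 took 63% and 29.3% of antibody UMIs, and LGALS3 took 0.633% and 11.2%. At 3 d Arg1 macrophages held 113919 and C1q macrophages 57832 of the ITGA6 UMIs. The part of these antibodies and cells in the shares was not tested. The 9 isotype controls, antibodies with no target in the tissue, ranged from 136 to 3677 UMIs at 2 h and from 312 to 4262 at 3 d. The other 11 integrin antibodies had 0 to 50 UMIs at 2 h and 0 to 27 at 3 d, fewer than any isotype control, and ITGA2, ITGB1 and ITGB3 had none in either library. ITGAM had 2 and 0 UMIs and ITGB2 had 0 and 1, in libraries where Itgam and Itgb2 RNA were plain in neutrophils. ITGAL, the antibody for the chain whose RNA changed in most lineages, had 6 and 7. The antibody names follow human symbols, their clones are not stated in the labels or methods, and these 11 antibodies say nothing on whether the proteins were present.

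ITGA6 and ITGB7 both stood at least 2-fold over the mean of the isotype controls in all 8 lineages and in both libraries, which made 16 of 104 pairs of an integrin antibody and a lineage, where 1.91% of the 2144 pairs of any antibody other than an isotype control did. Isotype controls averaged 0.0415 to 0.209 UMIs per cell in these lineages, and 0.919 and 0.711 in Arg1 and C1q macrophages.

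Surface ITGA6 was strongest on macrophages, the endothelial cluster and basophils or mast cells. C1q macrophages had a mean of 348 UMIs per cell (median 248.5) and Arg1 macrophages 179 (median 95.5) at 3 d. The endothelial cluster had 203 per cell at 2 h (median 56.5) and 157 at 3 d (median 12), with quartiles of 2 and 91 at 3 d, so that its cells ran from nearly none to very many. Basophils or mast cells had 68.5 and 95.4 per cell. B cells had the least, at 2.93 and 5.95 per cell.

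On neutrophils the antibody per cell and the RNA did not go together. ITGA6 was 23.6 UMIs per cell at 2 h (quartiles 13 and 29) and 25.8 at 3 d (quartiles 15 and 30), which was 392 and 448 times the isotype mean, while Itga6 RNA was 1.14 and 5.93 CPM. T cells had 41.7 and 96.0 CPM of Itga6 RNA and fewer ITGA6 UMIs per cell, at 8.80 and 19.3. Per 10000 antibody UMIs of the lineage the order turned, with 2310 and 2935 in T cells and 1755 and 2263 in neutrophils. Neutrophils that lacked an Itga6 UMI at 3 d still had a mean of 25.04 ITGA6 UMIs per cell, against 60.4 in the 48 cells with one. The medians were nearer, at 22 and 28, and the median RNA depth was 4429.5 and 5467.5 UMIs. A UMI count of 0 in a cell does not show that the gene is silent there.

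Per cell, surface ITGB7 was strongest on classical monocytes, at 69.0 UMIs at 3 d (median 64, quartiles 44 and 89), where Itgb7 RNA was 201 CPM. Per 10000 antibody UMIs at 3 d ITGB7 was 4085.5 there, below T cells (5123), NK cells (4681.5) and B cells (4359). Mean ITGB7 per cell at 2 h and 3 d was 18.3 and 33.7 on T cells and 13.7 and 30.25 on B cells. In the dendritic cell cluster it was 28.3 and 34.8. The medians ran in another order, at 8 and 17 on T cells, 12 and 28 on B cells and 11.5 and 13 in that cluster. Basophils or mast cells, which had the most Itgb7 RNA among the named lineages at 3 d (306 CPM), had 4.597 and 13.2 ITGB7 UMIs per cell. Neutrophils had 4.45 and 5.37 per cell, with medians of 2 and 1.

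**Figure D4:**
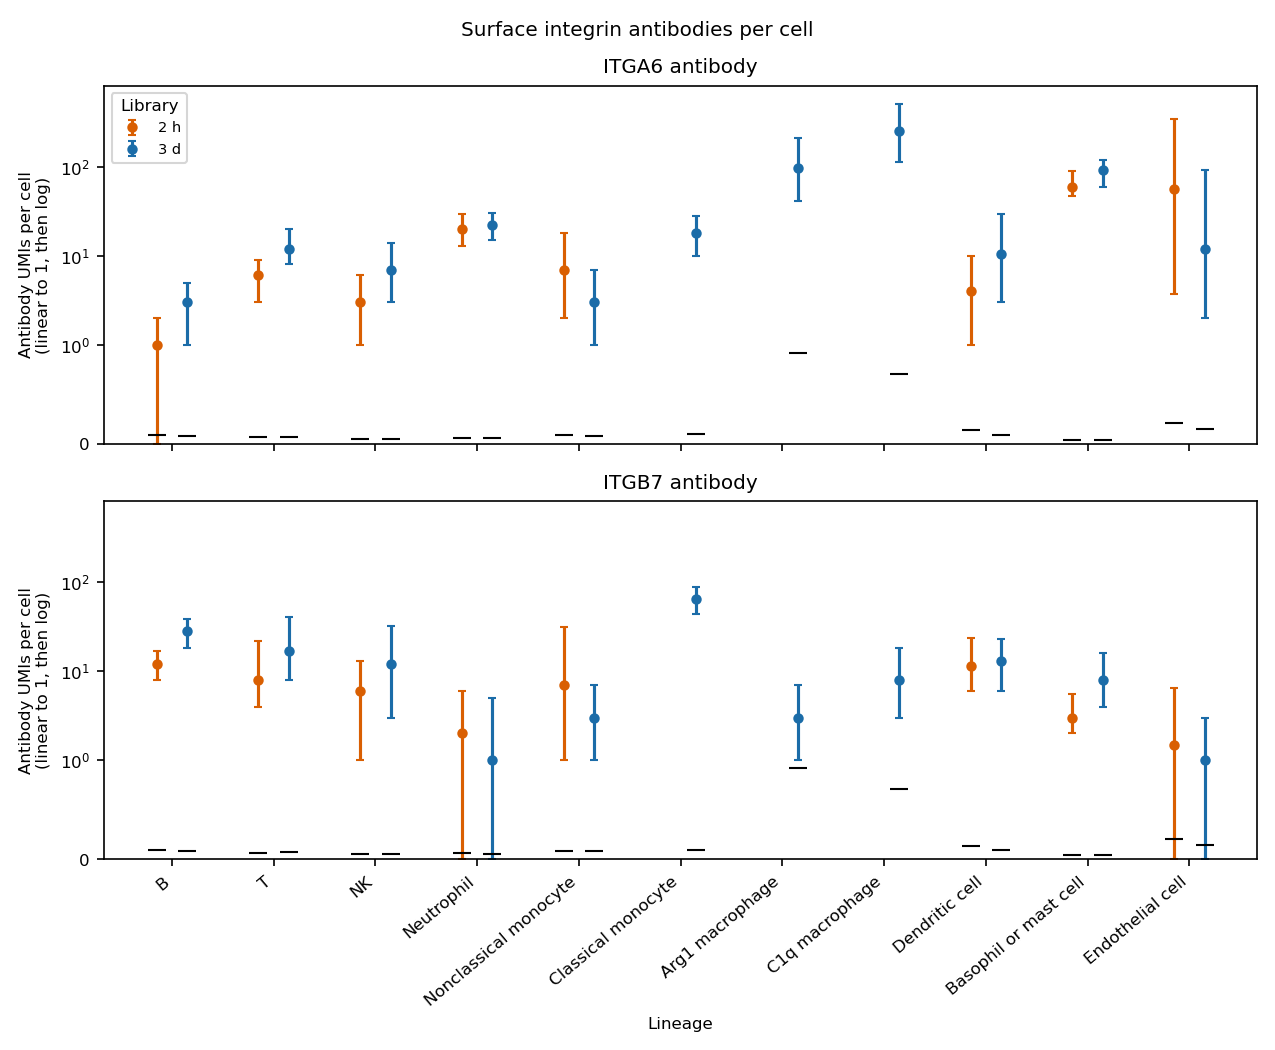
Antibody UMIs per cell for ITGA6 (top) and ITGB7 (bottom) by lineage at 2 h (orange) and 3 d (blue), with the axis linear up to 1 and logarithmic above. Points are medians over cells, bars run between the quartiles, and black dashes are the mean of the 9 isotype controls: ITGA6 is highest in C1q macrophages (median 248.5) and ITGB7 in classical monocytes (median 64).

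Antibody and RNA levels were set side by side over lineages. For ITGA6 Spearman's rho was 0.46 over 8 lineages at 2 h and 0.55 over 11 at 3 d, and for ITGB7 it was 0.31 and 0.49. The lineages of a library share its antibody staining and depth, and these values are descriptions. Within a lineage, cells with a UMI for the gene mostly had more antibody: Arg1 macrophages with an Itga6 UMI had 367 ITGA6 UMIs per cell and those without had 108, and the median RNA depth was 11121.5 and 9238 UMIs. In the endothelial cluster at 3 d the values were 670 and 68.2, with depths of 3192 and 783.5 UMIs. In T cells at 3 d they were 19.1 and 19.4.

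**Figure D5:**
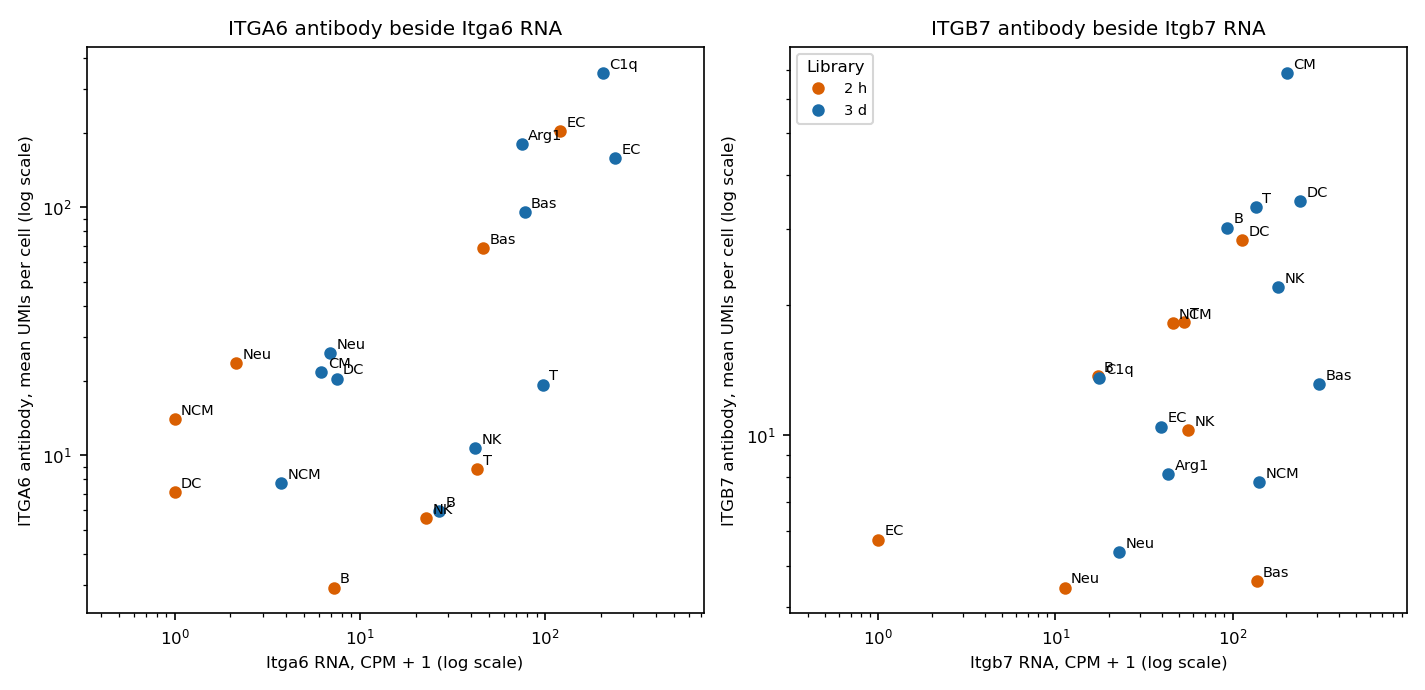
Mean antibody UMIs per cell against RNA (CPM + 1) of the same chain, both on log scales, with 1 point per lineage and library. Labels are B, T and NK cells, Neu neutrophils, NCM and CM nonclassical and classical monocytes, Arg1 and C1q macrophages, DC dendritic cell cluster, Bas basophils or mast cells and EC endothelial cluster. Neutrophils lie high for ITGA6 (23.6 and 25.8 per cell) at low RNA, and basophils or mast cells lie low for ITGB7 at high RNA.

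How far the antibodies changed from 2 h to 3 d depended on the scale. Per 10000 antibody UMIs of a lineage, 3 of 16 pairs were called higher and 0 lower, where 16.1% and 12.6% of all 87 antibody and lineage pairs were. These were ITGB7 in basophils or mast cells (424 and 923 per 10000), ITGB7 in the endothelial cluster (238 and 503) and ITGA6 in the dendritic cell cluster (966 and 2137). Scaled to isotype control UMIs instead, 8 pairs were called higher and 1 lower. No share of all antibodies is given on that scale, so these calls cannot be read as particular to the integrins. Per cell, the log2 ratio of ITGB7 was 1.52 in basophils or mast cells, where that of the RNA was 1.17. In B cells Itgb7 RNA had a log2 ratio of 2.49, and the ITGB7 antibody had 0.55 per 10000 antibody UMIs and 1.14 per cell.

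Nonclassical monocytes went the other way. Their Itgb7 RNA was 45.0 CPM at 2 h and 140 CPM at 3 d, and their ITGB7 antibody was 18.2 UMIs per cell (quartiles 1 and 31) and 7.81 (quartiles 1 and 7). ITGB7 was the pair called lower on the isotype scale (log2 ratio -1.08), and per 10000 antibody UMIs it was not called (-0.46). The 7 classical monocyte markers summed to 2355 CPM in this lineage at 2 h and 879 CPM at 3 d, and 1 cell of the classical monocyte cluster came from the 2 h library. The part of such cells in the antibody values was not tested.

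T cells were divided by Cd4 and Cd8 RNA, a choice made after values were seen. Of 2516 T cells at 2 h, 416 had a Cd8 and no Cd4 UMI and 142 a Cd4 and no Cd8 UMI. At 3 d 373 and 197 of 708 did, and in naive lung 231 and 201 of 576. Most T cells of the shallow 2 h library thus fell in neither group. ITGB7 on cells with a Cd8 and no Cd4 UMI had a median of 28 (quartiles 9 and 50) at 2 h and 29 (5 and 77) at 3 d. On cells with a Cd4 and no Cd8 UMI it was 6 (3 and 10) and 15 (9 and 21). Itgb7 RNA in the same cells was 53.0 CPM in Cd8 and 50.4 CPM in Cd4 cells at 2 h, and 128 CPM (interval 117 to 139) and 158.5 CPM (139.8 to 179) at 3 d. The Cd8 cells thus had the higher antibody median at both times and the lower RNA level at 3 d. Their wide quartiles show that some Cd8 cells had little ITGB7 and others much.

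The Cd4 and Cd8 cells also differed in other chains. Itgae was 14.7, 22.5 and 20.6 CPM in Cd8 cells of naive lung, at 2 h and at 3 d. In Cd4 cells it was 9.56, 5.59 (from 1 UMI) and 0 CPM. The intervals of the groups overlapped in naive lung and at 2 h. They did not at 3 d, where 0 of 1627357 UMIs in Cd4 cells gave an interval of up to 2.27 CPM. An unnamed cluster led by Ikzf2 and Rora, whose best marker list was that of T cells, lay outside this split. It held 1 naive, 0 2 h and 345 3 d cells, and had 27.0 CPM of Itgae at 3 d. The part of its absence in the Cd4 and Cd8 values was not tested. Itgb3 was 10.2, 8.04 and 6.95 CPM in Cd8 cells and 50.4, 61.5 and 41.8 CPM in Cd4 cells. Itga6 was 83.4, 25.7 and 65.0 CPM in Cd8 cells and 199, 61.5 and 152 CPM in Cd4 cells, and the intervals of the groups did not overlap in naive lung or at 3 d. Itgal was close in both, at 164 and 141 CPM at 3 d.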

How the data were processed

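Counts of UMIs per gene and cell, and per antibody and cell at 2 h and 3 d, were used as deposited by the authors, and libraries of 1 pool of 2 mice each were grouped by their treatment label. The submitters' processing notes name mm10, Cell Ranger 6 and Seurat 4, while the headers show that Cell Ranger 7.1.0 wrote the naive file and 6.0.0 both transplant files. The labels name both a 5′ and a 3′ kit without assigning them, and the methods name a 3′ kit. No source states if intronic reads were included.

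Cells with more than 200 and under 6000 genes, under 25000 UMIs and under 10% mitochondrial UMIs were kept, and clustered with Seurat 5.3.0 (SCTransform, 30 components, resolution 0.8) after 14 integrin genes were removed from the variable features. Doublets were kept, and Scrublet (scanpy 1.11.5) marked 1.65% to 3.92% of cells. A cluster was named where its best marker list stood out, with at least 3 markers raised, and markers of another list did not lead its 10 top genes. UMIs were summed per lineage and library, with exact intervals (scipy 1.17.1). The ratio calculation was run on Poisson counts simulated for T cells. Those counts follow the model that the intervals assume, so the run checks the arithmetic and not variation between cells or mice. Gene positions are from GENCODE M21.

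All 31 genes and 13 antibodies were accounted for. Genes that reached 100 CPM in a lineage were described in full, and machinery genes were taken from the 5 largest ratios per lineage. The T cell split by Cd4 and Cd8 UMIs was chosen after values were seen. Members and lists were chosen with earlier results of these data known.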

Additional observations from a re-analysis of the deposited data

How the results depend on the processing

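With 1 library per group nothing here is replicated, and counting intervals leave out differences between mice. No paired analysis was possible because each group holds 1 library. The 2 h library was the shallowest, so that lineages such as the endothelial cluster rest on few UMIs there (66738). Counts of called pairs between 3 d and 2 h ran from 34 to 49 over the other cell, lineage, scaling and UMI choices, against 44, and were 54 at a 1.5-fold and 20 at a 3-fold limit. These are totals, and single calls could change within them. Where cells were named one by one, Itgb2 fell below the 2-fold limit in NK cells and nonclassical monocytes. With at least 200 UMIs, 18 pairs (31 before) were called between 2 h and naive and 14 (22 before) between 3 d and naive. Of the machinery pairs, 89 at first, 161 were called at 1.5-fold, 29 at 3-fold and 53 with integrin genes kept in the clustering, where fewer lineages were named. In that setting 10 of 65 antibody pairs, in place of 16 of 104, stood over the isotype controls. Per isotype control UMI, 9 antibody pairs were called in place of 3. The direction turned for Itgb2l in neutrophils, 2 h over naive (log2 0.10 with integrin genes kept in the clustering), and, where cells were named one by one, for Itga4 (-1.47) and Itgal (-0.75) in endothelial cells, 3 d over naive. The causes were not tested. Leaving out the endothelial cluster, added after seeing the data, left 41, 27 and 15 called pairs in the 3 comparisons. No share of all genes or of all antibodies is given under these settings, so that the counts describe the chosen members alone.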

Other observations

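Clusters that no marker list named held integrin values that the lineages above do not show. A cluster found at 3 d, led by Ikzf2, Rora, Il5, Icos, Cxcr6 and Trdc, had ITGB7 at a mean of 41.1 UMIs per cell and a median of 4 (quartiles 1 and 36), so that a minority of its 345 cells carried most of the antibody. ITGA6 in the same cells was 28.1 per cell with a median of 19. A cluster of 370 cells at 2 h, led by Ccl4, Ccl3, Cxcl3 and Spp1, had 25.1 ITGA6 UMIs per cell, near the 23.6 of the neutrophils of that library.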
